A study of Mus musculus with 20 samples.

Results

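The miR-200 family was followed by DNA chip across 5 tissues of klotho(-/-) mice and of their wild-type littermates. The members were the chip's 4 probes for miR-141, miR-200a, miR-200b and miR-200c, of 200 mouse miRNA probes in all, and they were taken by name and not by their values. klotho(-/-) mice are deficient in the klotho gene and are used as a model of early ageing. Lung, kidney, spleen, heart and liver of male mice, all 5 weeks old, were examined, and 2 arrays were made for each genotype in each tissue, which gave 10 groups. By the study's legend the arrays numbered 1 and 2 came from 2 different individual mice, so every value rests on few animals. The chip holds no probe for the klotho mRNA, and the genotype labels could not be checked from the data.

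The miR-200 family is a textbook marker of epithelial cells. Its members repress the mRNAs of ZEB1 and ZEB2, transcription factors that silence E-cadherin and other genes of cell adhesion, and thereby hold cells in the epithelial state. The ZEB factors in turn bind E-box sequences in the promoters of both miR-200 loci and silence them, so that the miRNAs and the factors repress each other. Lung and kidney are rich in epithelial tubes, whereas epithelial cells of this kind are scarce in spleen and heart muscle, and in liver they are found mainly in bile ducts.

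The 4 members form pairs in 2 ways, by the genomic cluster that encodes them and by the seed that selects their target mRNAs, and the mature sequences are shown because the results turn on these pairs. All 4 were matched to RefSeq entries (GRCm38.p6). The seed, bases 2 to 8, is in capitals. The first 3 are encoded on the minus strand of chromosome 4, among them miR-429, which is shown for its sequence and was not analysed here, and the last 2 on the minus strand of chromosome 6.
miR-200b: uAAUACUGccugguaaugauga
miR-200a: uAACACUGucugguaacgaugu
miR-429: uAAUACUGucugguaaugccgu
miR-200c: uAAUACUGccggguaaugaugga
miR-141: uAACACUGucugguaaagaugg

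Mature miR-200b lies at chr4:156055685-156055706 and miR-200a at chr4:156054911-156054932, and the 3 hairpins of this cluster span 1846 bases. Mature miR-200c lies at chr6:124718324-124718346 and miR-141 at chr6:124717917-124717938, with both hairpins within 477 bases. The seed AACACUG was shared by miR-200a and miR-141 and by no other of 1679 mature mouse sequences in the table. The seed AAUACUG was shared by miR-200b, miR-200c and miR-429. Members of one seed therefore lie in different clusters, and they are also the most alike sequences. Counted from 1 at the 5′ end over 22 bases, miR-200a and miR-141 differ by C17A and U22G, and miR-200b and miR-200c by U11G and A22G. The other pairs of members differ at 4 or 5 positions. Whether a probe also bound the near-identical sequence of another member was not tested.

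All 3 hairpins of the chromosome 4 cluster lie within the lncRNA gene Gm13648, on the same strand, which starts 4052 bases before the miR-200b hairpin. Its promoter is shown, because the chromosome 4 members moved together, with the E-box CACCTG, a sequence that ZEB factors are known to bind, in capitals (chr4:156059753-156060052, minus strand, RefSeq, GRCm38.p6).
Gm13648 promoter: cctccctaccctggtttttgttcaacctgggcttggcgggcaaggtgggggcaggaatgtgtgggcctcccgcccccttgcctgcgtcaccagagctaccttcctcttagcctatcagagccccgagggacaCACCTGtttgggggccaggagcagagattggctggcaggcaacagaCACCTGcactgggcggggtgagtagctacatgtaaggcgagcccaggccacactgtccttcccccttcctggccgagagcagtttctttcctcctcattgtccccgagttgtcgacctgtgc

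The E-box CACCTG or its reverse complement CAGGTG occurred at 2 places in this window, 118 and 72 bases before the transcript start. At least 1 match was found in 20.2% of 32851 mouse promoter windows of 300 bases, and at least 2 in 2.88%. A match of letters is a description of the sequence and does not show a bound site.

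Hybridization signal intensities were deposited as signals from which the authors had subtracted a constant for each array, and these are called deposited signals. The summed deposited signal ran from 4162 to 57568 over the 20 arrays, the lowest values stood at a floor of 1 to 3, and 51 to 116 probes per array reached a signal of 10, below which probes are called dim. The klotho(-/-) arrays were brighter in lung, kidney and liver, where their mean summed signal was 1.38, 1.56 and 1.91 times that of wild-type, against 1.06 times in heart and 0.882 times in spleen. Defining miRNAs were checked in 3 tissues. The hepatocyte miRNA miR-122a was at 1625 to 4196 in liver and at most 11 elsewhere, and the striated muscle miRNAs summed to at least 7586 in heart and at most 594 elsewhere. The leukocyte miRNAs summed to 592 and 986 in wild-type spleen, to 596 on klotho(-/-) Spleen 2 and to 267 on klotho(-/-) Spleen 1, the last within the 137 to 343 of the lung arrays, and to at most 76 in the other tissues. The klotho(-/-) Spleen 1 array stood apart from the other spleen arrays, with a correlation of 0.778 over probes with klotho(-/-) Spleen 2, where the other pairs of one group reached 0.938 to 0.995. Calls of the members that change without it are given both ways.

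The family was detected in lung and kidney and was at or near the floor in heart and liver. Of 16 deposited signals in each tissue, from 4 members on 4 arrays, all 16 reached 10 in lung, all 16 in kidney, 4 in spleen, 0 in heart and 0 in liver. The 4 in spleen were those of the 4 members on klotho(-/-) Spleen 1. In such bulk tissue, fewer epithelial cells and less of a miRNA per cell cannot be told apart.

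**Figure D1:**
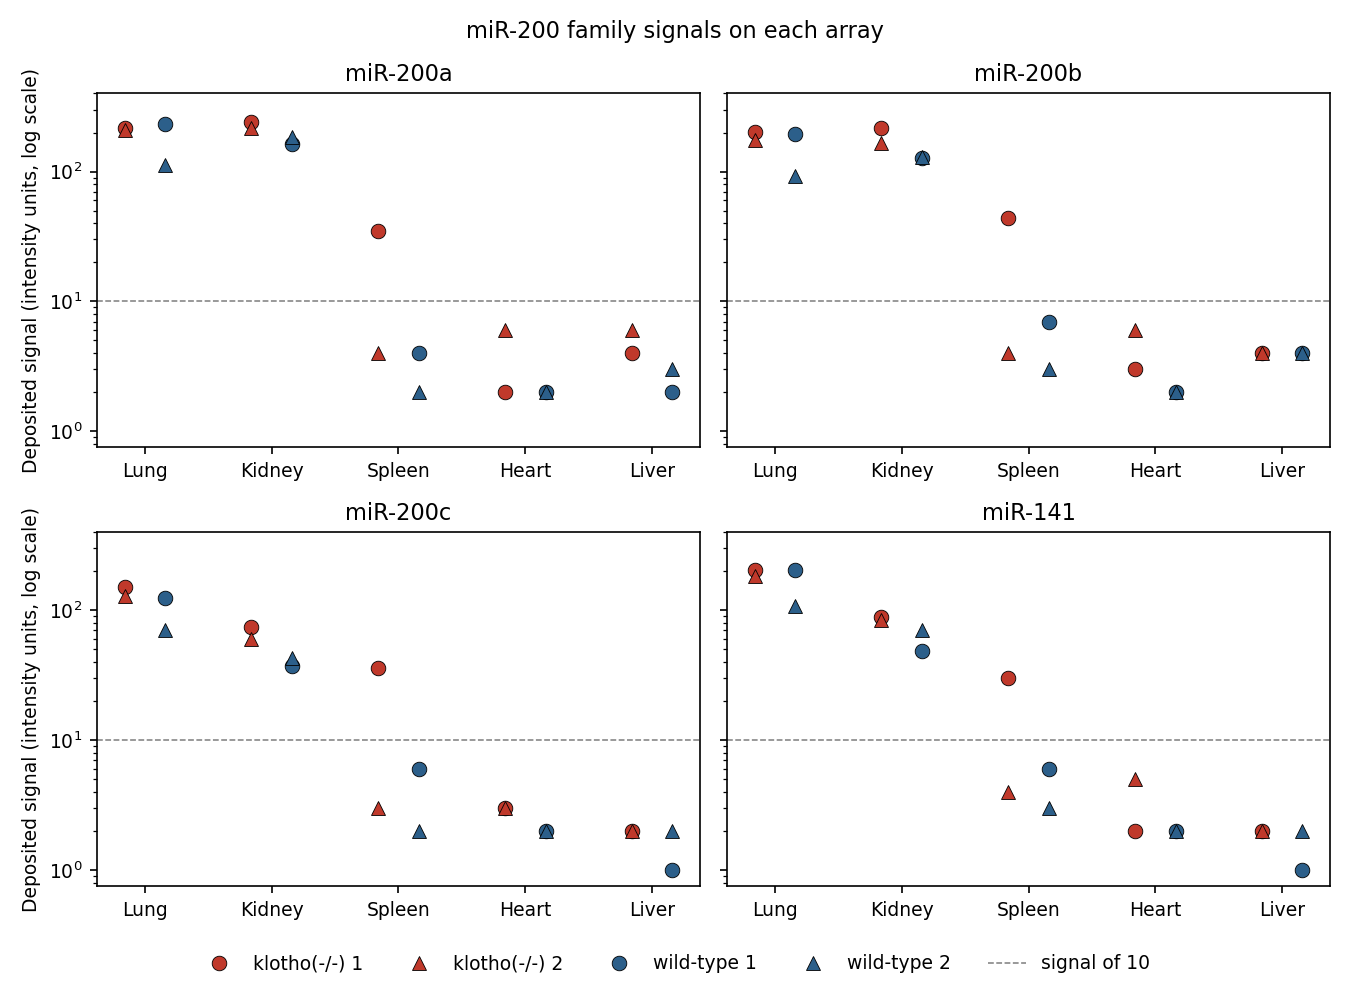
Deposited signal of each member (log scale, intensity units) on each of the 20 arrays, by tissue; colour is the genotype, shape the array number, and the dashed line a signal of 10. All lung and kidney points lie between 37 and 242, heart and liver points lie between 1 and 6, and klotho(-/-) Spleen 1 is the only spleen array above the line.

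In lung, miR-200a had deposited signals of 217 and 208 on the klotho(-/-) arrays and 233 and 113 on the wild-type arrays. miR-200b, of the same cluster, had 201 and 174 against 195 and 93. In both, wild-type Lung 2 was the dimmest array and the klotho(-/-) values lay close to or within the wild-type range. In the chromosome 6 cluster, miR-200c had 152 and 128 on the klotho(-/-) arrays and 125 and 70 on the wild-type arrays, and miR-141 had 205 and 185 against 206 and 108. Only for miR-200c were both klotho(-/-) lung arrays above both wild-type arrays, as they were for 33% of the 112 lung probes tested, and the summed signal of the klotho(-/-) lung arrays was also higher.

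In kidney, miR-200a had deposited signals of 242 and 216 on the klotho(-/-) arrays and 163 and 185 on the wild-type arrays. miR-200b had 217 and 166 against 127 and 129. miR-200c had 74 and 60 on the klotho(-/-) arrays and 37 and 43 on the wild-type arrays. miR-141 had 89 and 84 against 49 and 71. The kidney signals of all 4 members were higher on both klotho(-/-) arrays than on both wild-type arrays, and so were those of 78% of the 91 kidney probes tested. From lung to kidney the chromosome 4 members stayed at about the same deposited signal, at 193 ± 54.2 and 202 ± 34.7 for miR-200a and 166 ± 49.9 and 160 ± 42.2 for miR-200b (SD, n = 4). The chromosome 6 members were dimmer in kidney, at 119 ± 34.7 and 53.5 ± 16.8 for miR-200c and 176 ± 46.4 and 73.2 ± 17.9 for miR-141.

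In spleen, miR-200a had 35 and 4 on the klotho(-/-) arrays and 4 and 2 on the wild-type arrays. miR-200b had 44 and 4 against 7 and 3, miR-200c 36 and 3 against 6 and 2, and miR-141 30 and 4 against 6 and 3. One klotho(-/-) array was thus high for all 4 members and the other lay within the wild-type range for all 4. In heart the 16 values ran from 2 to 6 and in liver from 1 to 6, and the klotho(-/-) and wild-type values were all dim.

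The 2 clusters were not in the same proportion in kidney and in lung. Ratios of 2 members were formed within each array, where brightness cancels, and were compared only between arrays, since probes differ in how strongly they hybridize. The ratio of miR-200a to miR-200c was 1.43, 1.63, 1.86 and 1.61 on the lung arrays klotho(-/-) 1 and 2 and wild-type 1 and 2, and 3.27, 3.60, 4.41 and 4.30 on the kidney arrays in the same order. The lowest kidney array was above the highest lung array, and the geometric means of 3.86 and 1.63 differed 2.38-fold. The ratio of miR-200a to miR-141 was 2.57 to 3.33 in kidney and 1.05 to 1.13 in lung, a difference of 2.56-fold. The ratio of miR-200b to miR-200c was 2.77 to 3.43 in kidney and 1.32 to 1.56 in lung (2.18-fold), and that of miR-200b to miR-141 was 1.82 to 2.59 against 0.861 to 0.980 (2.34-fold). In none of these 4 ratios between clusters did the arrays of the tissues overlap. The same held for 61.8% of the 3403 ratios of any 2 of the 83 probes at 10 or more on all lung and kidney arrays, and 33.4% were apart by at least 2.18-fold, so such a difference was common between these tissues.

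Members of the same cluster were in proportions that overlapped between kidney and lung, where most pairs of probes were apart. The ratio of miR-200a to miR-200b was 1.12 to 1.43 in kidney and 1.08 to 1.22 in lung, and its geometric means differed 1.09-fold. The ratio of miR-200c to miR-141 was 0.606 to 0.831 in kidney and 0.607 to 0.741 in lung, with a 1.08-fold difference. Over the 3403 ratios the median difference was 1.70-fold, and 8.9% differed by no more than the 1.09-fold of miR-200a to miR-200b. The seed made no such division, since the pairs that share a seed, miR-200a with miR-141 and miR-200b with miR-200c, were among those whose ratio differed.

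**Figure D2:**
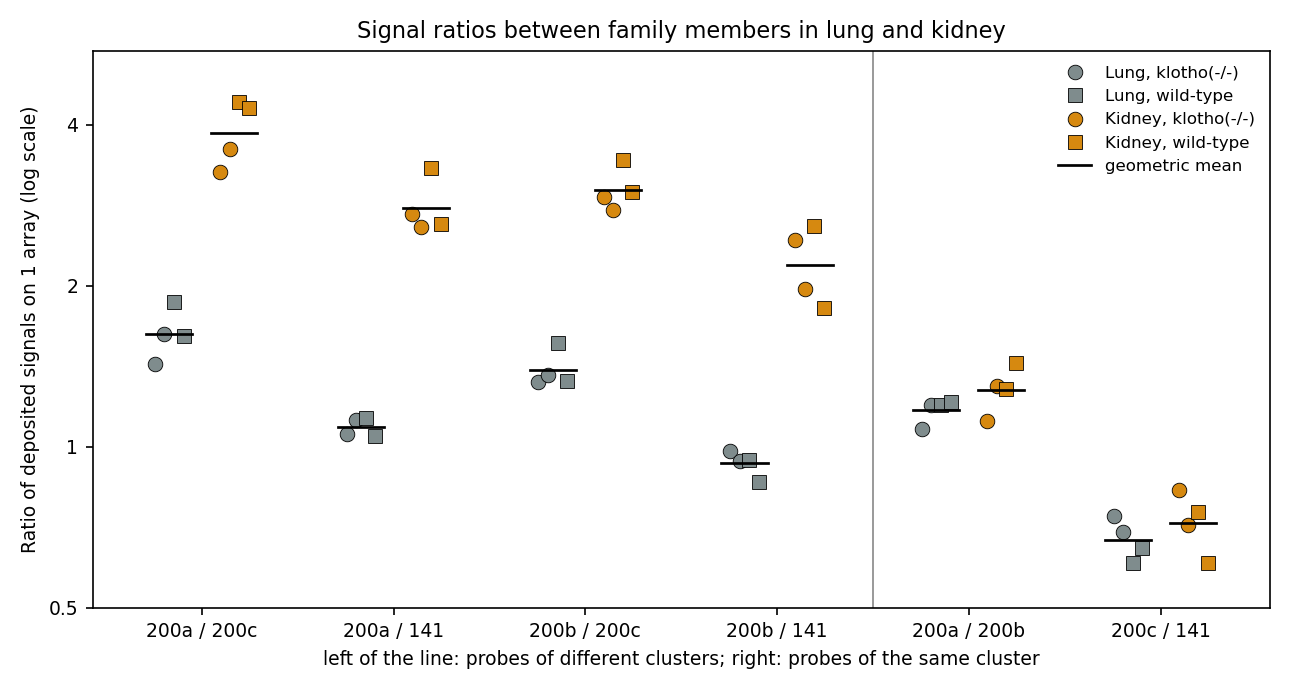
Ratio of the deposited signals of 2 members on the same array (log scale), with 4 lung and 4 kidney arrays for each ratio and a line at the geometric mean; circles are klotho(-/-) and squares wild-type. Left of the grey line, where the members come from different clusters, kidney lies above lung by 2.18-fold to 2.56-fold with no overlap, and right of it, within a cluster, the arrays overlap.

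The same was seen after normalization. Each probe was centred on its mean over the 20 arrays on the log2 scale, and the mean of miR-200c and miR-141 was subtracted from the mean of miR-200a and miR-200b. This cluster difference was 0.59 ± 0.10 in kidney and -0.10 ± 0.08 in lung (SD, n = 4), a difference of 0.69, and the arrays did not overlap. It was 0.80 with no scaling between arrays, 0.86 with an offset of 16 in place of 50 before the logarithm, and 1.24 for the ratio of deposited signals with no offset, since the offset draws dim signals together. The corresponding seed difference was 0.24 ± 0.16 in kidney and 0.21 ± 0.11 in lung, and the arrays overlapped. No test was made of a value built from several members.

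On klotho(-/-) Spleen 1, the single spleen array with all members at 10 or more, the ratios between clusters were 0.972 for miR-200a to miR-200c, 1.17 for miR-200a to miR-141, 1.22 for miR-200b to miR-200c and 1.47 for miR-200b to miR-141. All 4 lay below the lowest kidney array. The first and the third also lay below the lowest lung array, whereas the others lay above the highest. Within the clusters, the ratio of miR-200a to miR-200b was 0.795 on this array, below all lung and kidney arrays, and that of miR-200c to miR-141 was 1.20, above all of them, so here the proportion within a cluster differed too. These are the ratios of a single array with signals of 30 to 44.

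The proportions were also set against the genotype in lung and in kidney, 12 ratios in all, with no test. In kidney the ratio of miR-200a to miR-200c was 3.27 to 3.60 on the klotho(-/-) arrays and 4.30 to 4.41 on the wild-type arrays, and that of miR-200b to miR-200c was 2.77 to 2.93 against 3 to 3.43. In lung the ratio of miR-200c to miR-141 was 0.692 to 0.741 against 0.607 to 0.648. In these 3 ratios the genotypes did not overlap, and in the other 9 they did. Over all pairs of probes at 10 or more on each array, the genotypes were apart in 55.1% of ratios in kidney and 55.5% in lung, so 3 of 12 was below that share.

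Over the 20 arrays, members of one cluster also followed each other most closely. On the normalized log2 scale Pearson's r was 0.976 for miR-200a with miR-200b and 0.962 for miR-200c with miR-141. It was 0.940 for miR-200b with miR-200c and 0.926 for miR-200a with miR-141, the pairs of one seed, and 0.916 and 0.913 for the remaining pairs. Leaving out klotho(-/-) Spleen 1, it was 0.986 and 0.980 within the clusters and 0.916 to 0.945 between them. These values share arrays, tissues and scaling, and many of them are dim.

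Tissue differences were tested with limma after quantile normalization over the 20 arrays, as the mean of a tissue's groups minus the mean of the other groups, on the scale of log2(signal + 50), with p-values adjusted over 138 probes. All 4 members were higher in lung and all 4 were higher in kidney, where 26.1% and 22.5% of the tested probes were called higher. In kidney the difference was 1.76 ± 0.11 (SE) for miR-200a (adjusted p = 1.91e-08), the first of all 138 probes by size, and 1.32 ± 0.14 for miR-200b (adjusted p = 7.36e-06), the fifth. It was 0.72 ± 0.11 for miR-200c (adjusted p = 0.000197) and 0.87 ± 0.09 for miR-141 (adjusted p = 5.39e-06). The kidney arrays of miR-200a and miR-200b were above those of every other tissue. For miR-200c and miR-141 they overlapped with lung.

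In lung the difference was 0.73 ± 0.11 for miR-200a (adjusted p = 7.99e-05) and 0.57 ± 0.14 for miR-200b (adjusted p = 0.00500). It was 0.59 ± 0.11 for miR-200c (adjusted p = 0.000880) and 0.95 ± 0.09 for miR-141 (adjusted p = 3.18e-06). Among the members the largest lung difference was thus that of miR-141 and the largest kidney difference that of miR-200a, the members that share the seed AACACUG but not the cluster. At a log2 difference above 1, miR-200a and miR-200b were called in kidney and no member in lung, where 5.8% and 2.17% of probes were called by this rule.

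In heart all 4 members were lower than in the other tissues, by 0.57 to 1.07 on the log2 scale, where 35.5% of probes were called lower. In liver they were lower by 0.40 to 0.69, with 38.4% of probes called lower. The call of miR-200b in liver was lost without any 1 of the 4 liver arrays, with adjusted p of 0.0516 to 0.104. In spleen, where 39.9% of probes were called lower, miR-200a, miR-200b and miR-141 were lower by 0.78, 0.54 and 0.42, and miR-200c had a difference of -0.22 (adjusted p = 0.102). With median scaling the spleen difference of miR-141 was -0.20 and did not pass (adjusted p = 0.0577). Without klotho(-/-) Spleen 1 the difference of miR-200c in spleen was -0.46 (adjusted p = 4.06e-06), and all 4 members were lower.

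Because the heart and liver values were dim, folds against these tissues are lower bounds, taken against a signal of 10 on each array. By geometric means of deposited signals, lung was at least 18.6-fold higher than heart or liver for miR-200a, 15.9-fold for miR-200b and 11.4-fold for miR-200c. Kidney was at least 19.9-fold higher for miR-200a, 15.6-fold for miR-200b and 5.16-fold for miR-200c. After normalization over the 20 arrays, which scaled up the dim liver arrays, the bounds for kidney were 5.39-fold to 19.3-fold over heart and 1.12-fold to 4.01-fold over liver. Those for lung were 4.69-fold to 8.80-fold over heart and at most 1.83-fold over liver, with no bound above 1 for miR-200c.

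The order of the tissues was the same for miR-200a and miR-200b, whereas between miR-200c and miR-141 kidney and lung changed places. The normalized log2 level of miR-200a was 7.98 ± 0.08 in kidney, 7.15 ± 0.10 in lung, 6.06 ± 0.16 in liver, 5.94 ± 0.39 in spleen and 5.72 ± 0.05 in heart (SD, n = 4). miR-200b had the same order, with 7.55 ± 0.10, 6.95 ± 0.05, 6.18 ± 0.12, 6.07 ± 0.56 and 5.74 ± 0.04. For both, kidney differed from lung (adjusted p = 0.000258 and 0.0211) and lung from liver (adjusted p = 1.25e-05 and 0.00255). Among liver, spleen and heart, where most signals were dim, neighbours did not differ beyond the spread with all arrays. Without klotho(-/-) Spleen 1, liver minus spleen was 0.32 for miR-200a (adjusted p = 0.00179) and 0.41 for miR-200b (adjusted p = 0.000184), and on wild-type arrays only it was 0.20 and 0.40 (adjusted p = 0.0196 and 0.00175). All these liver signals were dim.

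miR-200c was at 6.74 ± 0.11 in kidney, 6.63 ± 0.11 in lung, 5.99 ± 0.45 in spleen, 5.75 ± 0.05 in liver and 5.70 ± 0.02 in heart. miR-141 was at 7.04 ± 0.11 in lung, 6.98 ± 0.12 in kidney, 5.95 ± 0.31 in spleen, 5.73 ± 0.02 in liver and 5.71 ± 0.04 in heart. For these members kidney and lung did not differ beyond the spread (adjusted p = 0.703 and 0.813), and the next tissue, spleen, was lower (adjusted p = 0.00179 and 6.58e-06). In all, 6 of 16 neighbouring pairs differed, beside the share of all 138 probes that differed between the tissues compared. This share was 38.4% for lung and kidney, 55.8% for lung and liver, 59.4% for lung and spleen and 57.2% for kidney and spleen, as for spleen and heart, and it was 47.8% for spleen and liver and 49.3% for liver and heart. The number was 8 of 16 without klotho(-/-) Spleen 1 and 10 without klotho(-/-) Spleen 2.

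Whether kidney or lung was the higher depended on how arrays were scaled. On the log2 scale, kidney minus lung was 0.83 ± 0.13 (SE) for miR-200a, 0.60 ± 0.18 for miR-200b, 0.10 ± 0.15 for miR-200c and -0.06 ± 0.12 for miR-141 after quantile normalization. With median scaling it was 0.81, 0.68, 0.004 and -0.05. With no scaling, where the median of all tested probes itself shifted by -0.55, it was 0.07 and -0.03 for miR-200a and miR-200b (adjusted p = 0.695 and 0.883) and -0.69 and -0.86 for miR-200c and miR-141 (adjusted p = 0.000488 and 0.000124). Under each of the 3 scalings the chromosome 4 members stood above the chromosome 6 members in this difference.

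**Figure D3:**
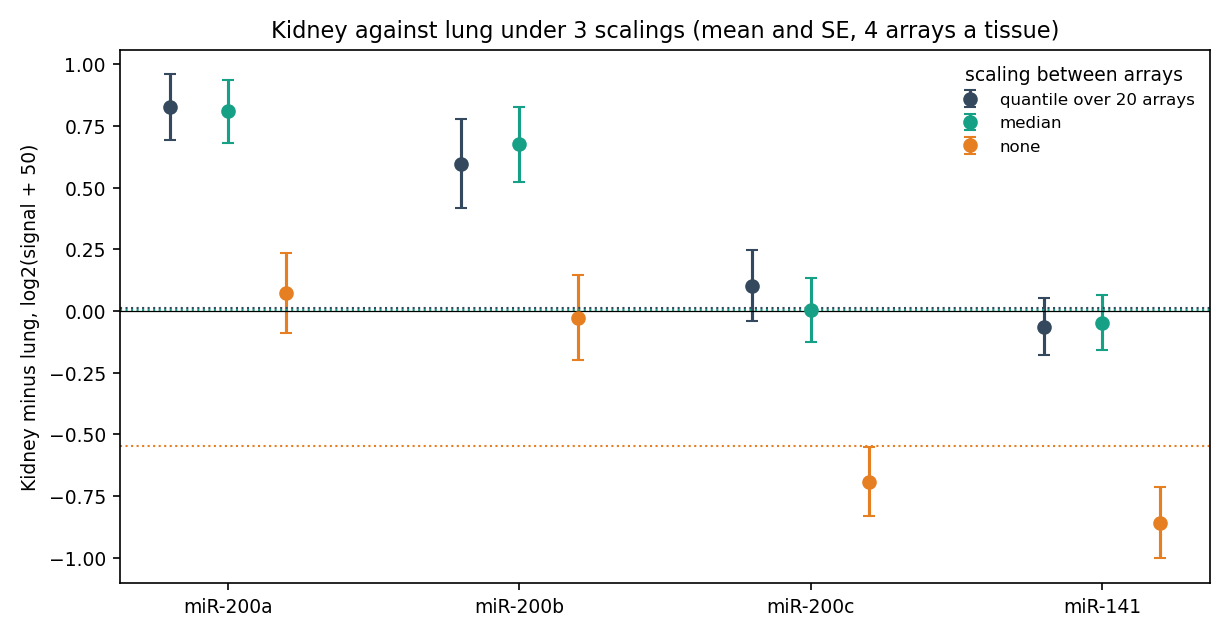
Kidney minus lung for each member on the scale of log2(signal + 50), with the SE of the limma model as error bar and 4 arrays a tissue, under 3 ways of scaling between arrays; dotted lines mark the median of all tested probes under each. The points of miR-200a and miR-200b lie above those of miR-200c and miR-141 under each scaling, and with no scaling miR-200c and miR-141 fall to -0.69 and -0.86.

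No member differed between klotho(-/-) and wild-type mice in the limma test. The comparison asks whether loss of klotho went with a change of these miRNAs, and it was made after quantile normalization within a tissue. In lung 0 of 4 members were called, where 8.04% of 112 tested probes were, in kidney 0 of 4, against 7.69% of 91, and in spleen 0 of 4, against 30.2% of 96. In heart and liver no member reached the mean signal of 10 that a test required. None of these tests had an unadjusted p under 0.05 in the model of 10 groups, whose SE pools their spread. The methods' test gave 0 members at that level as well.

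In lung, klotho(-/-) minus wild-type on the log2 scale was -0.12 ± 0.14 (SE) for miR-200a, with a 95% interval of -0.42 to 0.18 and an adjusted p of 0.745. It was -0.05 ± 0.20 for miR-200b (interval -0.49 to 0.38), 0.21 ± 0.17 for miR-200c (interval -0.16 to 0.58) and -0.12 ± 0.14 for miR-141 (interval -0.42 to 0.18), with adjusted p of 0.957, 0.718 and 0.745. After normalization both klotho(-/-) arrays lay below both wild-type arrays for miR-200a, miR-200b and miR-141 and above them for miR-200c. Over all tested lung probes, 41.1% were apart in one direction or the other. The SE and intervals pool the spread of 10 groups, so the gap between the klotho(-/-) spleen arrays widened them. Without either of those arrays the lung differences were unchanged. The SE then fell to 0.06 for miR-200a and miR-200b, 0.08 for miR-200c and 0.09 for miR-141. With lung alone the SE was 0.05, 0.05, 0.12 and 0.06 in the order given above.

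In kidney the difference was -0.13 ± 0.14 for miR-200a (interval -0.43 to 0.17), 0.05 ± 0.20 for miR-200b (interval -0.38 to 0.49), 0.16 ± 0.17 for miR-200c (interval -0.21 to 0.53) and -0.10 ± 0.14 for miR-141 (interval -0.40 to 0.20). The adjusted p were 0.765, 0.940, 0.765 and 0.796. The spleen arrays widened these intervals too. Without either klotho(-/-) spleen array the kidney differences were unchanged, and the SE fell to 0.06, 0.06, 0.08 and 0.09. With kidney alone it was 0.05, 0.05, 0.05 and 0.14. The klotho(-/-) arrays were below the wild-type arrays for miR-200a and above them for miR-200c, and overlapped for the others, where 37.4% of all tested kidney probes were apart. Without scaling the differences were 0.28 to 0.39 in lung and 0.32 to 0.43 in kidney, near the medians of all tested probes of 0.34 and 0.30, and none passed (adjusted p of 0.223 to 0.400). Under 256 alternative values for the members in lung and kidney the lowest adjusted p was 0.125.

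In spleen the difference was 0.29 ± 0.14 for miR-200a (interval -0.01 to 0.59), 0.40 ± 0.20 for miR-200b (interval -0.03 to 0.84), 0.32 ± 0.17 for miR-200c (interval -0.05 to 0.69) and 0.20 ± 0.14 for miR-141 (interval -0.10 to 0.50). The adjusted p were 0.124, 0.136, 0.149 and 0.245, and the genotypes overlapped for all 4, where 54.2% of all tested spleen probes were apart. Without klotho(-/-) Spleen 1 no member reached the mean signal for a test in spleen. Without klotho(-/-) Spleen 2, with klotho(-/-) Spleen 1 as the only array of its group, the differences were 0.60, 0.91, 0.70 and 0.47 and all 4 passed (adjusted p = 1.82e-05, 9.58e-07, 4.05e-05 and 0.00234). The spleen comparison of the family therefore rested on a single array.

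Over the 5 tissues the mean difference was 0.03 ± 0.06 for miR-200a, 0.08 ± 0.09 for miR-200b, 0.14 ± 0.08 for miR-200c and 0.005 ± 0.06 for miR-141, and 0 of 4 were called, where 15.6% of 128 probes were. The heart and liver differences that enter this mean and the F test come from dim signals. Without the spleen arrays the means were -0.04, -0.01, 0.10 and -0.04. The F test that the 5 differences are equal called 0 of 4 (adjusted p of 0.543 to 0.863), where 10.9% of probes were called, and says little of members measured in so few of the tissues. Without klotho(-/-) Spleen 2, 3 members were called in the mean and 4 in the F test.

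**Figure D4:**
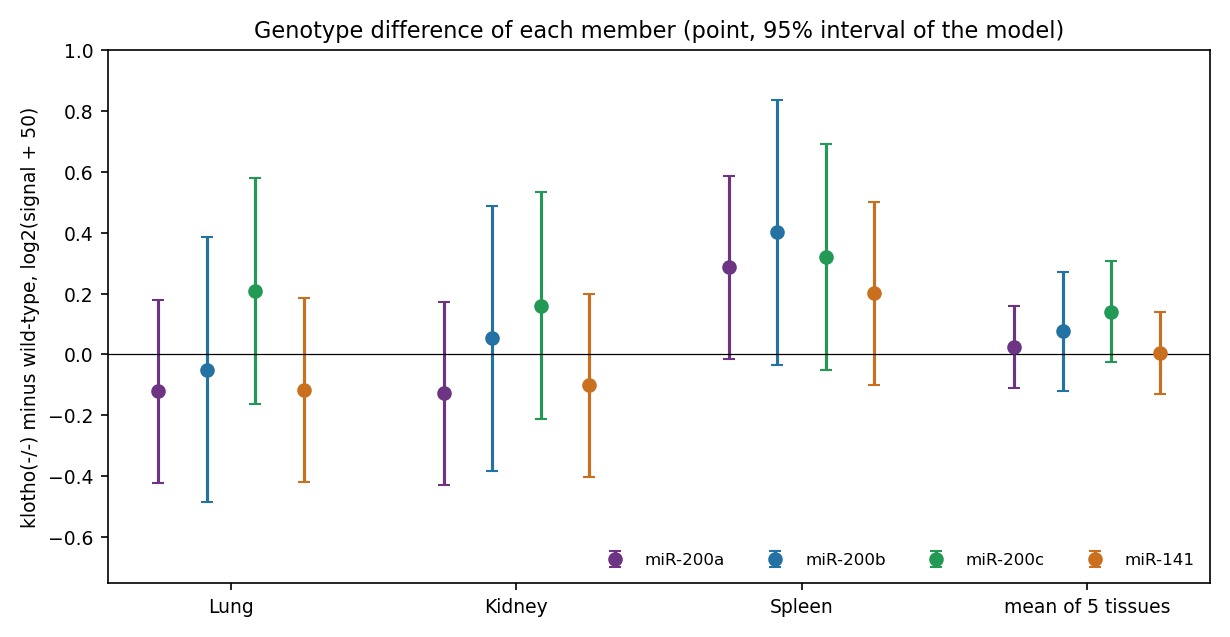
klotho(-/-) minus wild-type of each member on the scale of log2(signal + 50) in the 3 tissues where it was tested and as the mean of 5 tissues; bars are the 95% intervals of the limma model. All intervals include 0, and the spleen differences run from 0.20 to 0.40. The SE pools all groups, and the gap between the klotho(-/-) spleen arrays widens the lung and kidney intervals.

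The klotho(-/-) Spleen 1 array carried other miRNAs beside the family. Of 84 probes that reached 10 on this array, the median was 0.787 times the highest of the other spleen arrays, and 8 were over 3 times as high. These 8, named after their values were seen, were the 4 members, at 8.75 times for miR-200a, 6.29 for miR-200b, 6 for miR-200c and 5 for miR-141, and 4 further probes. miR-375, a miRNA of pancreatic islets and other endocrine and epithelial cells, had 130 on this array and 13, 5 and 5 on the others. miR-194, a miRNA of intestine, liver and kidney epithelium, had 44 against 8, 8 and 6. The other 2 were miR-129-3p, at 20 against at most 4, and miR-152, at 41 against at most 13.

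Of 11 other epithelial miRNAs on the chip, 4 were highest on klotho(-/-) Spleen 1. Of these, miR-194 and miR-375 reached 10 there, and miR-203 and miR-205 did not. Of the 84 probes that reached 10 there, 33 were highest on it, a share that leaves out dim probes. This share of 33 of 84 also stands beside the counts of the other lists below, where only the leukocyte miRNA miR-155, at 8, was dim. The epithelial list summed to 206 on this array and to 38 to 52 on the other spleen arrays. Apart from miR-194 and miR-375, all 9 were below 10 on this array, among them miR-192, the partner of miR-194, at 4 and the keratinocyte miRNAs miR-203 and miR-205 at 5 and 4. Both miRNAs of the pancreas list that have a probe were highest on it, miR-375, which is in the epithelial list too, and miR-7, at 12 against 4, 9 and 8. Their sum was 142 against 13 to 17, most of it miR-375. miR-216b, which was not listed and was named after its values were seen, had 21 against at most 9. All 5 miRNAs of mesenchyme and smooth muscle were highest on it too, with a sum of 1259 against 368 to 710, for example miR-143 at 559 against 281, 344 and 183. Of the 4 leukocyte miRNAs none was highest on it, and their sum of 267 was the lowest of the spleen arrays. Whether the tissue of this array held other cells, and whether they had a part in its miR-200 family signal, was not tested.

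**Figure D5:**
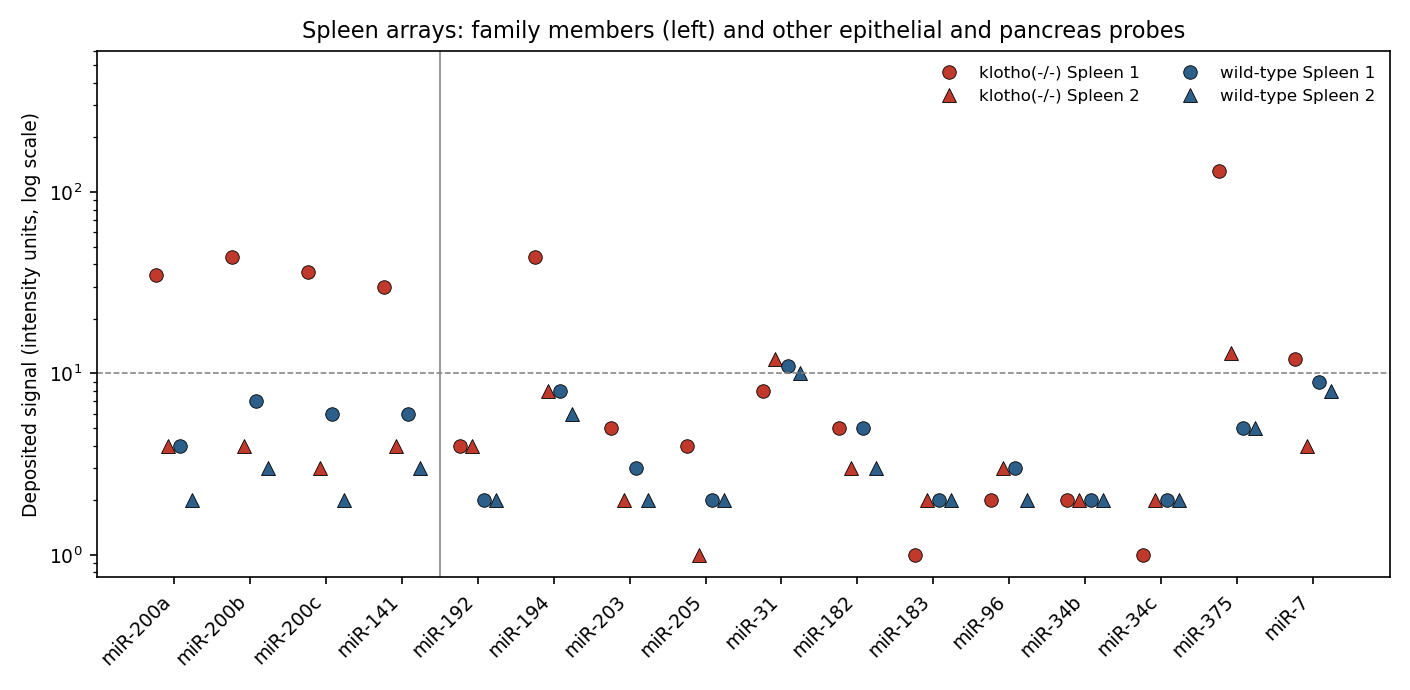
Deposited signals (log scale, intensity units) on the 4 spleen arrays for the 4 family members, left of the grey line, and for the other epithelial and pancreas miRNAs on the chip, right of it; the dashed line is a signal of 10. klotho(-/-) Spleen 1 stands above the other arrays for the members, miR-194 and miR-375, with 30 to 44 for the members and 130 for miR-375.

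The other epithelial miRNAs did not share one tissue pattern with the family. Of the 14 on the list, 11 are on the chip and 8 were tested. In lung 3 were higher and 3 lower than in the other tissues, where 26.1% of all probes were higher and 32.6% lower. In kidney 3 were higher and 3 lower, against 22.5% and 19.6%, with list medians of -0.09 and -0.07 beside -0.08 and -0.05 over all tested probes. miR-34b and miR-34c, miRNAs of ciliated airway epithelium, were higher in lung by 1.43 and 1.20 (adjusted p = 5.40e-09 and 1.06e-09) and had kidney differences of -0.31 and -0.24 (adjusted p = 0.00380 and 0.00153). miR-192 and miR-194 were higher in kidney by 0.33 and 1.24 and in liver by 1.37 and 3.12, with lung differences of -0.57 and -1.59 (adjusted p = 3.65e-06 and 2.54e-06). In heart 0 were higher and 7 lower, against 18.8% and 35.5% of all probes, in spleen 1 was higher and 6 lower, against 31.9% and 39.9%, and in liver 4 were higher and 2 lower, against 22.5% and 38.4%, whereas all 4 family members were lower in heart and liver. The higher count in spleen was miR-375, and without klotho(-/-) Spleen 1, where 7 were tested, 0 were higher and 7 lower. Kidney then had 4 higher, with miR-182 added, and 3 lower. The lung, kidney and liver counts depended on the scaling. With none, 5 were higher and 2 lower in lung and 2 higher and 3 lower in liver. With median scaling, where 7 were tested, 2 were higher and 4 lower in lung. In kidney 1 was then higher, miR-194, and 3 lower, so miR-192 was no longer called higher there. miR-31, called lower in lung and higher in liver, had deposited signals of 32 to 64 in lung and 22 to 29 in liver, and miR-203, called higher in liver, was dim there at 3 to 5. Between genotypes, after normalization, miR-192 and miR-194 were called lower in klotho(-/-) kidney, 2 of 4 tested there, where 7.69% of all kidney probes were called. In liver miR-31 was called lower, 1 of 3, where 5% of all liver probes were called. Its deposited signals in liver were 24 and 27 on the klotho(-/-) arrays and 22 and 29 on the wild-type arrays, which show no such fall. None of 8 was called in lung, none of 3 in spleen and none of 2 in heart, where 5.15% of all heart probes were.

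Among the 134 tested probes outside the family, those most like the mean of the 4 members over the 20 arrays were miR-103 (Pearson's r = 0.836), miR-182 (0.811), miR-26a (0.800), miR-10b (0.745) and miR-34a (0.726), against a median of -0.05. miR-10b, encoded in a Hox gene cluster, had deposited signals of 64 to 156 in kidney, 12 to 35 in lung and at most 10 elsewhere. miR-103 was present in every tissue, at 171 to 224 in kidney, 184 to 355 in lung and 19 to 102 elsewhere. miR-182 was at 15 to 31 in lung and 7 to 11 in kidney and at most 5 elsewhere, so it was dim on most arrays. None of these 5 correlations, each with the mean of the 4 members, reached the lowest between 2 single members, 0.913. The 2 measures are not the same. These values share the tissues and the scaling, and give the pattern of the levels only.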

How the data were processed

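Total RNA of each tissue was enriched for small RNA, which was labelled with 1 dye and hybridized to 20 chips of 200 probes. Of the 2 tables the authors deposited, both of them of fluorescence intensity, one holds intensity without background subtraction (lowest probe 16.5 to 21.4, brightest 342 to 4213) and the other has a constant subtracted (16.7 to 21.6) and holds whole numbers above a floor, neither scaled between arrays. Background of the first was corrected by normexp in limma 3.58.1 (R 4.3.3), values were quantile-normalized within a tissue for genotypes or over 20 arrays for tissues, and log2 was taken after adding 50, which draws dim differences toward 0. The plan had named this setting for a table found not to be subtracted. A probe was tested at a mean signal of at least 10. One limma model of 10 groups (lmFit, eBayes with a trend) had 10 residual and a median of 2.14 prior degrees of freedom. Within each contrast p-values had a Benjamini-Hochberg adjustment and a threshold of 0.05, and the intervals and SE come from this model.

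The members, lists and alternatives were chosen with earlier results of these data known. The text names the members in every tissue, the 5 probes most like them, miR-429 for its sequence and listed probes on which a result turns. By the study's legend, arrays of one number and genotype came from 1 mouse. klotho(-/-) and wild-type arrays of the same number deviated together, with correlations of 0.249 in lung, 0.475 in kidney, 0.371 in spleen, 0.126 in heart and 0.536 in liver, so the pairing comes from the values. Alternatives were other scalings, the second table, offsets of 16 and 100, no filter or a minimum of 30, a replicate block, a random block for the mouse, each tissue alone, the methods' test, wild-type arrays only and leaving out each array. The steps were run on simulated data with independent noise below the spread of the real arrays. No simulated array stood apart as klotho(-/-) Spleen 1 did, so that case was not tested. The number of arrays limits the precision of every value. Beside the probe names and identifiers, the first table has 1 column that belongs to no sample, and it was not used. Sequences, coordinates and the seed and motif searches used RefSeq tables (GRCm38.p6).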

Additional observations from a re-analysis of the deposited data

Results flagged for a closer look

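Of 20 sets of 4 arrays, 1 for each member and tissue, 5 held an array that stood far from the others on the normalized log2 scale, where chance gives about 1 in 20. Of these, 3 were klotho(-/-) Spleen 1, with deposited signals of 35 for miR-200a, 44 for miR-200b and 36 for miR-200c, and its 30 for miR-141 was not far enough to count. The klotho(-/-) Heart 2 array stood apart for miR-200a, with a deposited signal of 6 against 2 on the other heart arrays, all of them dim. The klotho(-/-) Kidney 1 array stood apart for miR-200b, with a deposited signal of 217 against 127 to 166, which gave log2 levels of 7.69 and 7.50 after normalization. Quantile normalization gave all the other kidney arrays the same value of 7.50, so this flag rests on a tie. No explanation of these arrays was tested.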

How the results depend on the processing

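Of 341 alternative values of counts and of the cluster difference, 334 stayed on their side or within the spread, as did 1638 of 1675 values of single members. Many of these could not move, since leaving out an array of another tissue left a genotype difference unchanged. A change of sign where neither value passed was counted as staying. For miR-200a in lung, for example, the genotype difference was -0.12 in the main model and 0.29 with no scaling. The replicate block for pairing cannot change the direction of a difference, because both array numbers occur in every group, and it alters only the SE. With this block all 56 values of the members kept their side of the threshold, 0 members were called between genotypes, and the lowest adjusted p there was 0.0865. All 4 members stayed higher in lung and in kidney under each of 29 alternatives, over a range of 1.25 to 2.60 for miR-200a in kidney.

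Leaving out 1 array at a time gave 0 to 4 members called between genotypes in spleen, 0 to 3 in the mean over tissues, 0 to 4 in the F test and 0 in lung and in kidney. The highest counts came without klotho(-/-) Spleen replicate 2, which left klotho(-/-) Spleen 1 alone, assumed to vary like the other groups. It gave 3 to 4 members lower in spleen and in liver, 4 lower in heart, 5 to 10 of 16 neighbouring tissues apart, and a cluster difference between kidney and lung of 0.65 to 0.73. That difference was 0.69 in the report, 0.80 with no scaling, 0.86 with an offset of 16 and 1.24 for deposited signals with no offset, a setting chosen after the data were seen.

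With no scaling, kidney minus lung turned to -0.026 for miR-200b and -0.69 for miR-200c, and that of miR-200a was 0.07 and no longer passed. Kidney minus lung of miR-200b also lost its call with an offset of 16 (0.77, adjusted p = 0.0817) and without klotho(-/-) Kidney 1 (0.53, adjusted p = 0.0719) or either wild-type kidney array (0.59, adjusted p = 0.0568 and 0.0600). Liver minus spleen of miR-200b ran from -0.19, without klotho(-/-) Spleen replicate 2, to 0.41, without klotho(-/-) Spleen replicate 1. The cause was not tested. Dim signals in heart, liver and most spleen arrays limit every order among these tissues.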
